A study of Linum usitatissimum with 4 samples.

Results

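A 58.1 kb block of flax chromosome Lu13, between the starts of the neighbouring genes Lus10024540.g and Lus10024541.g, held 123 of the 1894 differentially methylated cytosines that the authors listed for 3 treatments. Its members were selected by gene: all 116 rows that carry either identifier as the nearest gene in 8 of the 9 deposited tables, plus 7 rows of the remaining table, which were taken by position because its gene columns are not usable. The 123 listings cover 100 distinct cytosines and make up 6.49% of all listings. Since the block was chosen for its many listings, their number and direction are a description and were not tested.

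Whole-genome bisulfite sequencing, which reads unmethylated cytosines as thymine and leaves methylated ones as cytosine, was applied to shoot apices of flax (Linum usitatissimum) seedlings of the cultivar JRF-2. The control group was grown at 22 °C without treatment. A heat group spent 4 h a day at 40 °C on 5 consecutive days and then recovered at 22 °C, a 5-azacytidine group came from seeds soaked in a 1 mM solution for 24 h and stayed at 22 °C, and the last group had the seed soak and later the heat. Each of the 4 groups, given as 21 days old, was sequenced as 1 library of DNA from 10 pooled seedlings. Replicate errors therefore cannot be given, and all 3 comparisons use the same control library. Read depth is unknown. The lists hold only sites that passed the authors' limits, and a cytosine outside a list may have changed without passing them.

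Plants methylate cytosines in 3 sequence contexts: CG, CHG and CHH, where H is any base but G. In Arabidopsis, CG and CHG methylation is copied after replication by maintenance enzymes of the MET and CMT families, whereas CHH methylation lies mostly on transposons and intergenic repeats and is laid down anew by a pathway guided by small RNAs and by a chromomethylase. 5-Azacytidine is a cytidine analogue that is built into DNA and traps the methyltransferases that try to modify it. Genome annotation and sequence around the cytosines were not analysed here.

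The 2 genes point away from each other, and the block is the stretch between them. The distances in the authors' deposited tables place the start of Lus10024541 at Lu13 position 6958192 and that of Lus10024540 at 7027886, 69694 bp apart, and the 116 listings with a usable gene all have a negative distance, that is, they lie upstream of that gene. The 7 listings taken by position lie between the same starts. Listings ran from 6959244 to 7017344, and 0 of them lay within 1000 bp of either start. The nearest listings on Lu13 beyond the block were 1920497 bp before and 2163017 bp after it in the authors' deposited tables. The block held 123 of the 212 listings on Lu13. No function can be given for either gene: the rows of Lus10024540 carry 14 different free texts and those of Lus10024541 carry 8, and 0 are family descriptions.

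Listings crowded at both ends of the block and were sparse between them. Within the 3.13 kb next to Lus10024541, from 1052 to 4178 bp upstream of its start, lay 32 listings of 20 cytosines. After an empty run of 9818 bp, the middle 28.9 kb (6972188 to 7001092) held only 25 listings of 23 cytosines. The 14.1 kb towards Lus10024540 (7003269 to 7017344, 24617 to 10542 bp upstream of its start) held 66 listings of 57 cytosines. These bounds were drawn after the positions were seen. By nearest gene start, 50 listings belonged to Lus10024541 and 73 to Lus10024540, and the closest one to Lus10024540 was still 10542 bp away.

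**Figure D1:**
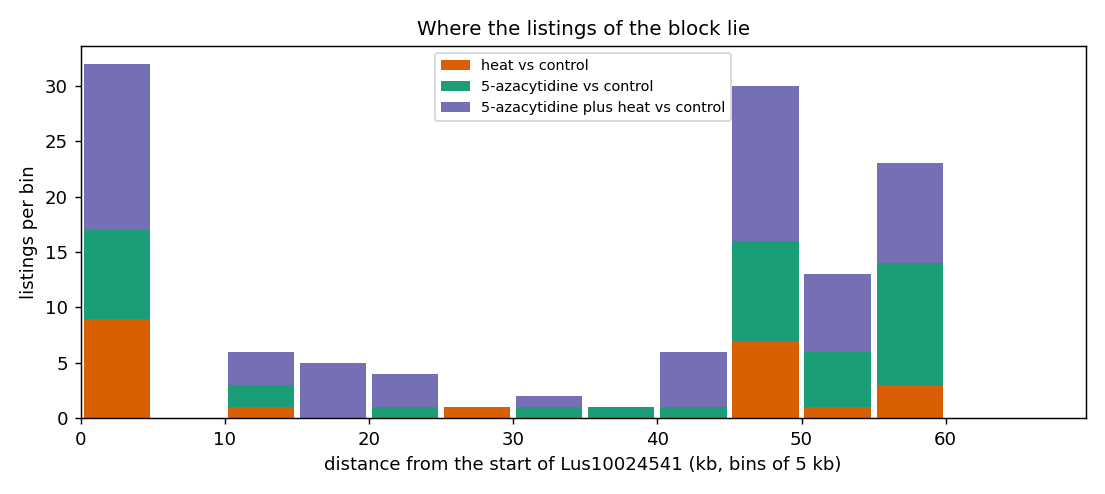
Number of listings of the block in bins of 5 kb (y axis) by distance from the start of Lus10024541 (x axis, kb), stacked by comparison. The bin next to that gene holds 32 listings and the bin after it 0, and the bin from 45 kb holds 30.

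With neighbours within 100 bp joined, the 100 cytosines formed 57 clusters, of which 24 had 2 or more cytosines and together took in 67 of them. The median length of these 24 clusters was 56.5 bp. The biggest, with 10 cytosines, lay at 6960009 to 6960379 near Lus10024541. Of the 24 clusters, 4 had listings from all 3 comparisons, 13 from 2 comparisons and 7 from a single comparison. All listings of 20 clusters were lower than control, and 4 clusters mixed directions, where 92.3% of the listings in all lists were lower. Clusters outside the block are not described here.

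By context, the block had 18 CG, 5 CHG and 100 CHH listings, on 11, 5 and 84 cytosines. CHH thus made up 81.3% of its listings, beside 84.5% of the 1771 listings elsewhere. No CG or CHG cytosine of the block had its partner on the other strand listed. CHH listings were lower than control in 94 of 100 cases (95.9% elsewhere). CG listings were lower in 8 of 18 (77.4% elsewhere) and CHG listings in 3 of 5 (72.5% elsewhere). Of the 10 higher CG listings, 8 came from 3 cytosines near Lus10024541, counted once per list. Differences stayed moderate: 0 of the 123 reached 40 points, which 117 of the other 1771 did, and in the authors' deposited tables they ran from -35.0 to 37.8 points.

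**Figure D2:**
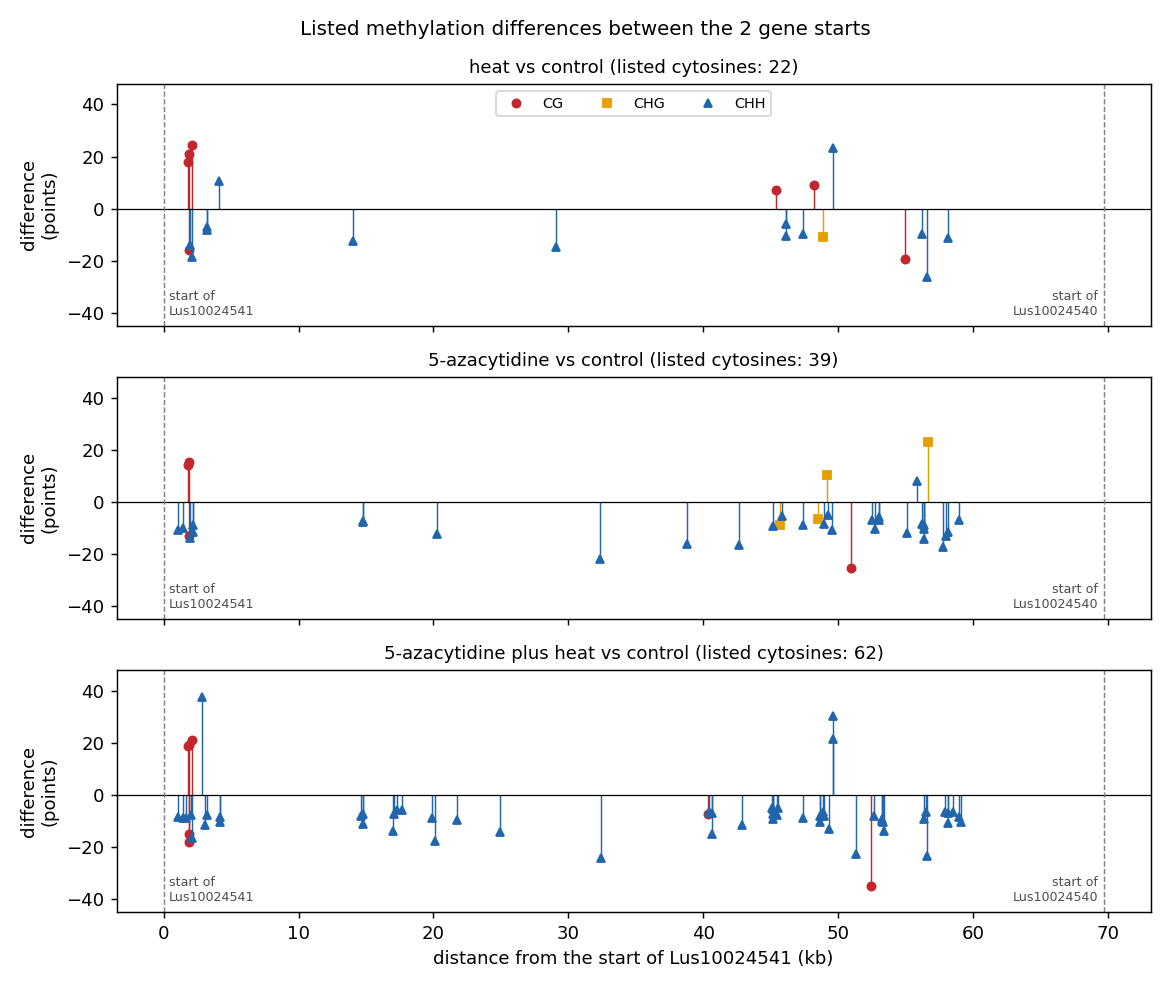
Methylation difference from control in percentage points (y axis) of each listed cytosine of the block, by distance from the start of Lus10024541 (x axis, kb), with 1 panel per comparison and colour and symbol for the context. Dashed lines are the 2 gene starts. Most CG listings above 0 gather 1817 to 2105 bp from the start of Lus10024541. The CHH listings lie mostly below 0 along the whole block.

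The comparison of heat with control had 22 listings in the block, 15 of them lower. That is 68.2% (95% exact binomial interval 45.1 to 86.1, counting error only, with neighbouring cytosines treated as separate), where 78.8% of all heat listings were lower. Direction differed by context. Of 7 CG listings 2 were lower (60.4% in the whole list), of 14 CHH listings 12 were lower (89.4% in the whole list), and the single CHG listing was lower (46.2% in the whole list). The median difference was -9.57 points (-9.56 in the whole list). Of the 6 listings with a q-value below 0.001, 50% were lower, and this share is not given here for the whole list. The higher ones were the CG sites at 6960009, 6960089 and 6960297, within 288 bp. The median of the 6 listings, 2.75 points, lies in a gap between falls of -12.5 points or deeper and rises of 18.0 points or more. The 22 listings were divided evenly between the genes, 11 to each.

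Treatment with 5-azacytidine alone had 39 listings in the block, 34 of them lower (87.2%, 72.6 to 95.7), where 90.8% of its whole list was lower. CHH again carried the falls, with 30 of 31 lower (93.4% in the whole list). Of 4 CG listings 2 were lower (79.7% in the whole list) and of 4 CHG listings 2 were lower (80.9% in the whole list). The median difference was -9.07 points (-9.66 in the whole list). Lus10024540 had 27 of the 39 listings and Lus10024541 had 12.

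The combined treatment had 62 listings in the block, the most of the 3 comparisons, as it also had the longest list overall. Of these, 56 were lower (90.3%, 80.1 to 96.4), where 95.3% of the whole list was lower. CHH listings were lower in 52 of 55 cases (97.6% in the whole list), and CG listings in 4 of 7 (78.2% in the whole list). It had 0 CHG listings in the block, and few in the whole list (25 of 1144). The median difference was -8.47 points (-9.35 in the whole list). Of the 7 listings with a q-value below 0.001, 42.9% were lower, and their median was 18.7 points, the value at 6960009. The higher ones were the CG sites at 6960009, 6960089 and 6960297, within 288 bp, and the CHH site at 7007818. The share lower at this cut is not given here for the whole list. In all, 35 listings belonged to Lus10024540 and 27 to Lus10024541.

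The lowest q-values of the block sat in the cluster next to Lus10024541. Over the 3 comparisons, 17 listings had a q-value below 0.001, and 11 of these lay within the 3.13 kb nearest to that gene. By comparison they were 6 of 22 for heat (20.1% in the whole list), 4 of 39 for 5-azacytidine (14.1% in the whole list) and 7 of 62 for the combined treatment (9.79% in the whole list). Of the 17, 7 were CG listings higher than control and 7 were CHH listings lower than control.

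At the centre of that cluster, 5 CG cytosines within 288 bp went in opposite directions side by side. The outer ones were higher than control and the inner pair lower. At 6960009, 1817 bp upstream of Lus10024541, the authors' deposited CG tables give 18.0 points for heat (q = 3.45e-05), 14.2 points for 5-azacytidine (q = 0.0103) and 18.7 points for the combined treatment (q = 2.02e-06). At 6960064, 55 bp further on, they give -16.0 points for heat (q = 0.000529) and -17.8 points for the combined treatment (q = 9.01e-06), with no listing for 5-azacytidine alone. So the sign changed over a distance shorter than the 150 bp of a read.

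The next CG cytosine, at 6960073, was also lower, with -13.0 points for 5-azacytidine (q = 0.0273) and -15.1 points for the combined treatment (q = 0.00143) in the authors' deposited CG tables. It was not listed for heat. Then, 16 bp on, the cytosine at 6960089 had 21.1 points for heat (q = 4.00e-09), 15.4 points for 5-azacytidine (q = 0.000404) and 19.2 points for the combined treatment (q = 3.44e-07) in the authors' deposited CG tables. The last, at 6960297, had 24.6 points for heat (q = 5.02e-12) and 21.0 points for the combined treatment (q = 2.27e-08) in the authors' deposited CG tables. Each of the 3 higher cytosines had its lowest listed difference in the list of 5-azacytidine alone or was missing from it.

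CHH cytosines between these CG sites were all lower. The smallest q-value of the block, 3.71e-13 in the authors' deposited CHH table, belonged to heat at 6960282, only 15 bp from the highest CG listing, with -18.5 points. For the combined treatment the same cytosine had -16.7 points (q = 4.70e-10) in the authors' deposited CHH table. At 6960136 the authors' deposited CHH tables give -14.1 points for heat and -13.9 for 5-azacytidine, and at 6960191 -7.81 points for the combined treatment. Just outside the CG sites, 6960356 and 6960379 had -11.4 and -9.07 points for 5-azacytidine in the authors' deposited CHH table. Closest to the gene, 1052 bp upstream, 6959244 had -10.8 points for 5-azacytidine and -8.49 for the combined treatment in the authors' deposited CHH tables.

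**Figure D3:**
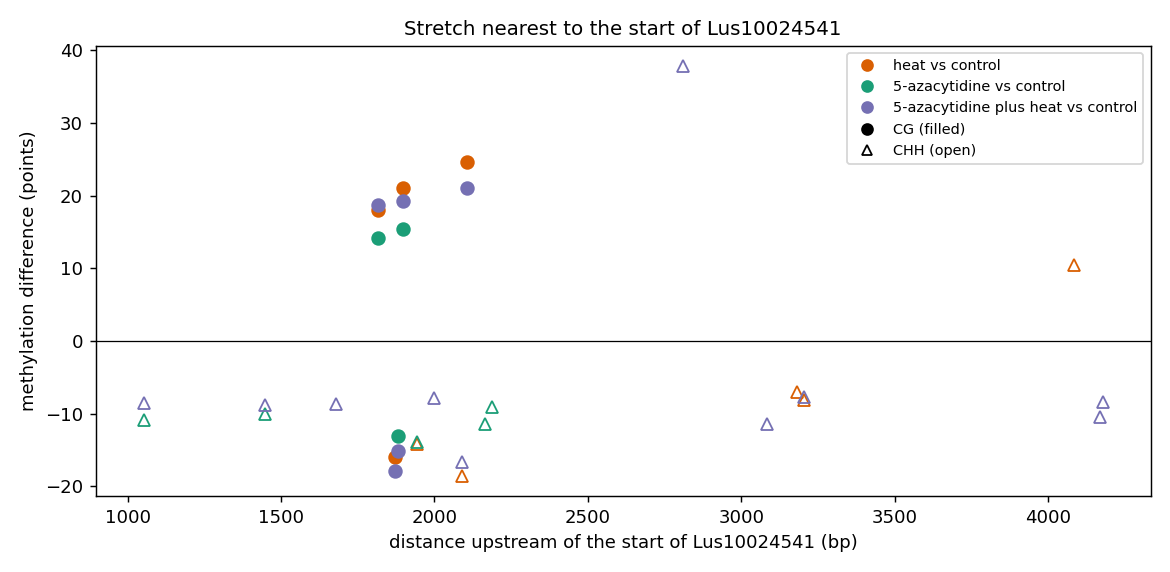
Methylation difference in percentage points (y axis) against distance upstream of the start of Lus10024541 (x axis, bp) for the stretch next to that gene, with filled circles for CG, open triangles for CHH and colour for the comparison. The 3 CG cytosines at either side are above 0 in each comparison that lists them, the 2 between them are below 0, and CHH listings lie below 0 apart from 2.

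Farther out in the same stretch, 2 CHH cytosines were higher than control, each in a single list. The highest difference of the block, 37.8 points for the combined treatment at 6961003, had a q-value of only 0.0267 in the authors' deposited CHH table. Heat had 10.4 points at 6962278 (q = 0.0226) in the authors' deposited CHH table, while 84 and 92 bp from it the combined treatment had -10.5 and -8.45 points. Between them, at 6961276 to 6961398, listings of heat and of the combined treatment were lower, from -7.01 to -11.4 points in the authors' deposited CHH tables.

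The sparse middle of the block was lower than control in 25 of 25 listings. Over all lists, 95.8% of CHH listings were lower (97.6% for the combined treatment). The middle was made up of 24 CHH listings and 1 CG listing. It had 17 listings from the combined treatment, 6 from 5-azacytidine and 2 from heat. Its deepest falls lay 70 bp apart at 6990513 and 6990583, 32321 and 32391 bp upstream of Lus10024541: -21.9 points for 5-azacytidine and -24.3 for the combined treatment, at different cytosines, in the authors' deposited CHH tables. A group at 6975212 to 6975843 was listed for the combined treatment alone, with -13.8, -7.32, -5.70 and -5.93 points in the authors' deposited CHH table. The heat listings, at 6972188 and 6987307, had -12.5 and -14.7 points in the authors' deposited CHH table, and neither cytosine was listed in another comparison. Lowest in q-value here was the combined treatment at 6972945, with -11.1 points (q = 9.09e-05) in the authors' deposited CHH table.

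A CG site of the middle part, 6998554, had -7.38 points for the combined treatment in the authors' deposited CG table (q = 0.0104), 56 bp from a CHH site with -6.64 points. At 6998854 and 6998866 the combined treatment had -15.0 and -6.91 points in the authors' deposited CHH table. The 5-azacytidine list had -16.1 points at 6997018 and -16.7 at 7000845 in the authors' deposited CHH table, each more than 100 bp from any other listing. No cytosine of the block between 6972965 and 7003405 was in more than 1 list.

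Towards Lus10024540 the listings of all contexts mixed, and 58 of 66 were lower (92.3% over all lists). At 7003269 to 7003405 the combined treatment had 4 falls, from -5.06 to -9.03 points, in the authors' deposited CHH table, the first of them the smallest difference of the block. At 7003405, 24481 bp upstream of Lus10024540, 5-azacytidine had -9.44 points as well in the authors' deposited CHH table. Heat had a CG rise of 7.24 points at 7003598 (q = 0.0333) in the authors' deposited CG table, with falls of the combined treatment at CHH sites 58 and 140 bp beyond it. Heat was also higher at the CG site 7006411, with 9.26 points (q = 0.00456) in the authors' deposited CG table.

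The 5 CHG listings of the block all lay in this part. In the authors' deposited CHG table of 5-azacytidine they were -8.79 points at 7003903, -6.56 at 7006746, 10.2 at 7007355 and 23.2 at 7014896, with q-values from 0.0202 to 0.0497. The largest q-value of the block, 0.0497, belongs to 7006746. Heat had -10.9 points at 7007086 (q = 0.00634) in the authors' deposited CHG table. The 23.2 points at 7014896, 12990 bp upstream of Lus10024540, stood 104 bp from the deepest CHH fall of heat in the block, -26.3 points at 7014792 in the authors' deposited tables.

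Of the CHH listings in this part, 4 of 56 were higher than control, beside 61 of 1496 outside the block. Of the 4, 3 were at 2 cytosines 17 bp apart, 20085 and 20068 bp upstream of Lus10024540. At 7007818 the authors' deposited CHH tables give 23.4 points for heat (q = 0.0151) and 30.3 for the combined treatment (q = 0.000641), and at 7007801 21.6 for the combined treatment (q = 0.0132). A neighbouring cytosine at 7007745 had -11.0 points for 5-azacytidine in the authors' deposited CHH table. The remaining higher listing was 8.10 points for 5-azacytidine at 7014074 (q = 0.00751) in the authors' deposited CHH table.

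The deepest falls of this part were at scattered cytosines. The lowest value of the block was -35.0 points at the CG site 7010663 for the combined treatment (q = 0.00487) in the authors' deposited CG table. At 7010693, 30 bp further, the 5-azacytidine list had only -7.13 points (q = 0.00239) in the authors' deposited CHH table. At the CG site 7009138 5-azacytidine had -25.5 points (q = 0.0178), and at the CHH site 7009561 the combined treatment had -22.8 points (q = 0.00315) in the authors' deposited tables. Heat had -19.2 points at the CG site 7013187 (q = 0.0475) in the authors' deposited CG table. A compact run of the combined treatment at 7011463 to 7011573 had 4 falls from -9.12 to -13.9 points in the authors' deposited CHH table, with no listing of heat or of 5-azacytidine among them.

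Other close neighbours of this part were lower than control. Heat had -5.81 and -10.6 points at 7004352 and 7004366 in the authors' deposited CHH table, with no other listing beside them. The combined treatment had -7.55 and -5.12 points at 7003656 and 7003738, -10.4 and -8.02 at 7006864 and 7006873, and -6.42 and -8.05 at 7007046 and 7007154 in the authors' deposited CHH table. Among the latter lay 7007134, with -8.53 points for 5-azacytidine in the authors' deposited CHH table.

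Neighbouring cytosines could carry falls of different size in different lists. At 7007471 5-azacytidine had -5.14 points, and 22 bp away at 7007493 the combined treatment had -13.1 points, in the authors' deposited CHH tables. The order was the other way at 7010861, with -7.89 points for the combined treatment, and 7010921, with -10.6 points for 5-azacytidine, in the authors' deposited CHH tables. At 7011205 and 7011254 5-azacytidine had -7.06 and -5.86 points in the authors' deposited CHH table.

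The end nearest to Lus10024540, from 7015953 to 7017344, was lower in 11 of 11 listings, all CHH (95.8% of CHH listings over all lists). Here 5-azacytidine had -17.5 points at 7015953 and -13.2 at 7016195 in the authors' deposited CHH table. Close to these the combined treatment had -6.51 points at 7016163 and -7.09 at 7016389 in the authors' deposited CHH table. At 7017170 and 7017199 5-azacytidine had -7.04 and the combined treatment -8.36 points in the authors' deposited CHH tables. The last listing, 10542 bp upstream of the gene, had -10.4 points for the combined treatment in the authors' deposited CHH table. At 7014539 to 7014589, just before this end, 5-azacytidine had 3 falls, of which the first was -14.1 points and the last, -8.78 points at 7014589, had its lowest q-value of the block (7.69e-05) in the authors' deposited CHH table.

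Of the 100 cytosines, 19 were listed in more than 1 comparison, 4 of them in all 3, and 81 in only 1. Over all lists, 216 of 1648 distinct cytosines were in more than 1 comparison, 30 of them in all 3. The comparisons share the control library, so a value particular to that library enters each of them. Besides the CG cytosines at 6960009 and 6960089, those in all 3 lists were CHH sites towards Lus10024540. At 7005585 the authors' deposited CHH tables give -9.58 points for heat, -8.83 for 5-azacytidine and -8.98 for the combined treatment. At 7016332, 11554 bp upstream, they give -11.1, -11.5 and -10.9 points in the same order. These values were close together, while at the CG sites 5-azacytidine alone was lower than heat and the combined treatment by a few points. Without a replicate, none of these differences between treatments was tested.

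**Figure D4:**
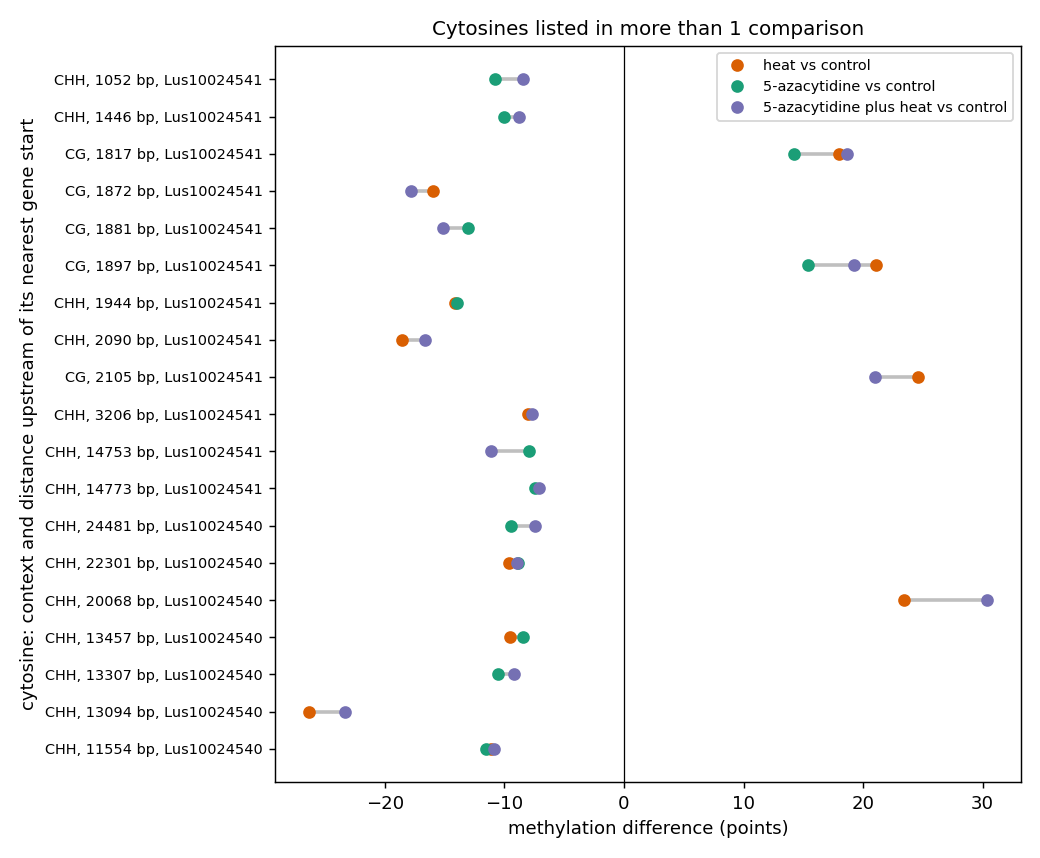
The 19 cytosines of the block listed in more than 1 comparison, named by context and distance to the nearest gene start (y axis), with the methylation difference from control in percentage points (x axis) and colour for the comparison; grey bars join values of a cytosine. In all, 3 CG cytosines and 1 CHH cytosine lie above 0, and the others below. The comparisons share 1 control library.

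Most of the other cytosines in more than 1 list were CHH sites with falls in 2 comparisons. At 7014792 the authors' deposited CHH tables give -26.3 points for heat and -23.4 for the combined treatment, with a cytosine 95 bp before it at -6.39 for the latter. At 7014429 they give -9.57 points for heat and -8.41 for 5-azacytidine, and at 7014579 -10.6 for 5-azacytidine and -9.19 for the combined treatment. Near Lus10024541, 6959638 had -10.1 and -8.80 points for 5-azacytidine and the combined treatment, and 6961398 had -8.06 and -7.72 for heat and the combined treatment, in the authors' deposited CHH tables. At 6972945 5-azacytidine had -7.92 points beside -11.1 for the combined treatment, and at 6972965 -7.46 beside -7.10, in the authors' deposited CHH tables.

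Among the other genes, the 3 with the most listings in the 8 tables with usable gene columns were Lus10006013 on Lu5 with 54, Lus10011702 on Lu9 with 45 and Lus10009768 on Lu13 with 37. Their listings spanned 11964, 5292 and 24843 bp, beside 58100 bp for the block, which joins 2 genes. By gene, with the rows taken by position counted, Lus10024540 had 73 listings and Lus10024541 had 50, fewer than Lus10006013. Of the 54 listings of Lus10006013, 51 were CHH and 53 lower than control. Lus10011702 had 16 CHG listings of its 45. The differences between these genes and the block were not tested.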

How the data were processed

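Per the submitters' processing notes, reads were handled with Trimmomatic, FastQC, BWA, MethylDackel and methylKit. The genome build and all versions are not given in the sources used here. There are 9 tables deposited by the authors (3 treatments against control, in 3 contexts). Per the file headers, each row gives a position, the authors' p-value and q-value, a methylation difference and a distance to the nearest gene start. The deposited difference is used as a score in percentage points and read as treated minus control, the methylKit convention, which the files do not state; were it coded the other way, every direction would swap. Each listing is 1 bp wide. Positions are the deposited starts, which may be off by 1 bp.

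In the CG table of 5-azacytidine plus heat, 7 rows carry a member gene and 0 of them lie on Lu13, so its 7 rows within the block were taken by position. Clusters join cytosines up to 100 bp apart. No test across samples was possible with 1 library per group, and intervals are exact binomial. Sites named are every CG and CHG listing, every cytosine in 2 or more lists, cluster extremes by q-value and size, and the ends of each gene's listings. The block, its genes and these rules were chosen with earlier results of these data known. Clustering and pairing were tested on simulated data. Python 3.11.15, pandas 2.3.3 and SciPy 1.17.1 were used.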

Additional observations from a re-analysis of the deposited data

How the results depend on the processing

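Of 23 recomputed results that could change, 10 kept within their limits (a count within 1.5 times, a share or median within its 95% interval). The intervals treat neighbouring cytosines as separate and are wide for few listings, so a result within them is not thereby shown to be stable. The heat share lower, 68.2% at first, counted as kept at 50% of 6 listings. Merging or matching partner cytosines had nothing to act on, as the block holds 0 partner pairs, and the 7 rows taken by position are all from the combined treatment, which had 55 listings without them. Gaps of 50 and 200 bp gave 73 and 41 clusters. With a q-value below 0.001, the listings fell to 6 for heat, 4 for 5-azacytidine and 7 for the combined treatment, and the cytosines in 2 or more lists to 5. The median difference for heat then went from -9.57 to 2.75 points, with 50% of the listings left lower. For the combined treatment it went from -8.47 to 18.7 points, with 42.9% lower. Shares lower at this cut are not given here for the whole lists. Of the listings left, 3 for heat and 3 for the combined treatment are the CG rises near Lus10024541. With differences of at least 10 points, 22 listings stayed for 5-azacytidine (median -11.7) and 28 for the combined treatment (median -11.5, 78.6% lower). A gap of 1000 bp, chosen after seeing the data, gave 17 stretches instead of 57 clusters. No paired analysis was possible because each group is 1 library. Depth is unknown, so which cytosines could have been listed cannot be said.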
